A study of Mus musculus with 2 samples.

Results

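Genes that make, sense and clear the second messenger cGMP were followed in single-cell transcriptomes of mouse lung fibroblastic stroma. The 7 genes are Gucy1a1 and Gucy1b1, Npr1, Npr2 and Npr3, Prkg1 and Pde5a. They were chosen by name, for their place in the nitric oxide and natriuretic peptide routes to cGMP, and all 7 are among the 21014 genes of both tables. Earlier values of these libraries, by class and by diet, were known when the genes were chosen, so the values below describe them and support no claim about the choice. The cells came from lungs of C57Bl/6J mice on a high fat diet (HFD) or on normal chow (NC), each diet given for 16 weeks. There was 1 library per diet, and how many animals each one pooled, or their age, is not stated in the labels. With no replicates there was no test, and each difference is between 2 libraries.

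Nitric oxide, made by neighbouring endothelium, enters mesenchymal cells and binds the haem of soluble guanylate cyclase, a heterodimer of an alpha and a beta subunit that turns GTP into cGMP. Natriuretic peptides reach the same messenger through receptors at the cell surface that carry their own cyclase domain. cGMP activates protein kinase G, which relaxes smooth muscle and pericytes, and phosphodiesterases break it down. In lung this pathway is known for setting vascular tone, and drugs that inhibit PDE5 or stimulate the soluble cyclase are used in pulmonary hypertension.

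Cells with fewer than 500 detected genes or over 10% mitochondrial counts were left out, which kept 6089 HFD and 8140 NC cells with medians of 10045 and 7524 counts. The deposited annotation has 5 classes. Myofibroblasts and the Asc1, Gas6 and Pi16 fibroblasts, 4 of them, are pooled here as fibroblasts, and the fifth is labelled pericytes. Levels are counts summed over the cells of a class and divided by their total, in CPM, so that a difference per cell and a difference in which cells make up a class cannot be told apart in them. Intervals are 95% and cover counting error only. They rest on effective counts, the counts divided by 4.85 in HFD and 3.98 in NC, because a positive cell of a rarely detected gene held a median of 3.25 and 2.66 counts. The 7 genes can be more clumped than that. Gucy1a1 had 193 effective counts from 68 positive cells in HFD myofibroblasts, and 219 from 147 in HFD Gas6 fibroblasts. Where this is so, the intervals are too narrow even for counting error. The class labelled pericytes carried smooth muscle genes. The 10 smooth muscle markers summed to 30164 CPM in HFD and 29321 in NC, and all 10 were highest there, while the pericyte gene Higd1b was at 3.86 and 2.04 CPM. Of 12 pericyte markers, 4 were highest in that class in each library, and 6 in HFD and 5 in NC were highest in the myofibroblast class. Over all 12, the class with smooth muscle genes summed to 898 CPM in HFD and 669 in NC. Myofibroblasts summed to 852 and 756 CPM, so the order of these sums differed between the libraries. The class with smooth muscle genes is called by its label below. The 3 measured platelet markers, of cells that hold both the soluble cyclase and Pde5a, summed to 6.96 and 6.45 CPM in pooled fibroblasts. The 5 measured endothelial markers summed to 0.467 and 1.36 CPM, 3 of them at 0 in HFD. The libraries shared 16 barcodes among kept cells.

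Gucy1a1 and Gucy1b1, the alpha1 and beta1 subunits of the soluble cyclase, were both higher in HFD fibroblasts. Gucy1a1 stood at 74.4 CPM in HFD (interval 69.6 to 79.5) and 37.3 in NC (34.4 to 40.4), a ratio of 1.99 (1.80 to 2.21). Gucy1b1 stood at 42.3 CPM in HFD (38.7 to 46.2) and 27.3 in NC (24.9 to 29.98), a ratio of 1.55 (1.36 to 1.76). Neither pair of intervals overlapped. Gucy1a2, the alternative alpha subunit, was scarce, at 1.64 and 1.95 CPM, a ratio of 0.842 (0.454 to 1.52). A gene was counted as measured at 50 or more effective counts in the 2 libraries together. Of 13422 such genes, 5.45% were at least 1.5-fold higher in HFD and 4.75% at least 1.5-fold lower. Of the 7 cGMP genes, 2 were past that size upwards (Gucy1a1 and Gucy1b1) and 1 downwards (Npr3). The Gucy1b1 ratio was under 1.5 without cells holding 2 or more (1.47) or 3 or more (1.48) pericyte markers, and in cells with 0 (1.42), so its call ended there. The share of fibroblasts with a Gucy1a1 count was 12.5% in HFD and 7.93% in NC, and 8.69% (7.95 to 9.48%) and 5.31% (4.81 to 5.84%) once every cell was thinned to 3000 counts. For Gucy1b1 the thinned shares were 5.18% (4.60 to 5.80%) and 4.17% (3.73 to 4.65%), which overlap slightly.

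The subunit genes lie next to each other on chromosome 3, on the same strand, with 0 annotated genes between them in the RefSeq table. As they encode the subunits of 1 enzyme and are neighbours, the 180 bases before a start of each are shown, from RefSeq, build GRCm38.p6, minus strand. Gucy1a1 is taken from chr3:82145074-82145253 and Gucy1b1 from chr3:82074712-82074891. Capitals mark CCAAT, the CCAAT box, and TGGGAA, the core letters read by RBPJ, the DNA-binding factor of the Notch pathway, on either strand (ATTGG and TTCCCA on the other).
Gucy1a1: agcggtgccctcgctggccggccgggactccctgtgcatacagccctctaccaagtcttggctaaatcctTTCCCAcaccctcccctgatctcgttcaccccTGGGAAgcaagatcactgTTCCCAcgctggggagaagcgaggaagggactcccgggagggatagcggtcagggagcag
Gucy1b1: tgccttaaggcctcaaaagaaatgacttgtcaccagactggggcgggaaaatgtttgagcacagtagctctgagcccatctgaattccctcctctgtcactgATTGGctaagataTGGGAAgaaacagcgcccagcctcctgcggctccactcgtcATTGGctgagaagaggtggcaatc

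The Gucy1a1 stretch held 3 TGGGAA matches and 0 CCAAT, and the Gucy1b1 stretch 1 TGGGAA and 2 CCAAT, with no match overlapping another. TGGGAA occurs in 15.65% of the 32851 windows of this length in the promoter table and CCAAT in 27.47%. A TATAAA box, in 8.937% of windows, was found in neither. A GGGCGG box, in 30.22%, was found once, in Gucy1b1. An upstream start of Gucy1a1 held 0 matches to all 4. These matches describe letters, and the files hold no measure of binding.

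Across classes, both subunit genes had the same order in both libraries: the class labelled pericytes, myofibroblasts, Asc1, Gas6 and Pi16 fibroblasts. In HFD, Gucy1a1 went from 293 CPM in the class labelled pericytes (273 to 314) through 264 in myofibroblasts, 82.5 in Asc1 and 54.9 in Gas6 to 14.2 in Pi16 fibroblasts. In NC it went through 170 (146 to 196), 143, 51.6, 19.8 and 11.6 CPM. The first 2 classes of this order overlapped in both libraries, and Gas6 and Pi16 overlapped in NC. Gucy1b1 spanned 190 to 6.74 CPM in HFD and 171 to 6.97 in NC along the same classes. The class labelled pericytes and myofibroblasts, and Asc1 and Gas6, overlapped for it in HFD, and no neighbours did in NC. The place of myofibroblasts for Gucy1a1 rested on few cells: without those holding counts of 3 or more of the 12 pericyte markers, myofibroblasts were at 69.5 and 40.1 CPM and Asc1 fibroblasts at 81.0 and 47.9. That turned the order of these classes in both libraries, while for Gucy1b1 myofibroblasts stayed higher, at 55.4 and 39.8 against 41.8 and 34.2 CPM. No intervals are given for these levels, so neither order is shown to lie beyond counting error. Levels in Asc1 fibroblasts were 28.1% (HFD) and 30.4% (NC) of those in the class labelled pericytes for Gucy1a1, against 0.683% and 0.639% for Acta2 and 0.420% and 0.291% for Myh11. Over all 10 smooth muscle markers, Asc1 fibroblasts summed to 1144 CPM in HFD and 1198 in NC, against 30164 and 29321 in that class. This is a larger share than for Acta2 or Myh11 alone. The percentages are shares of one class's level in another, and the level that free RNA would give was not measured. The plot of levels by class shows this order.

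**Figure D1:**
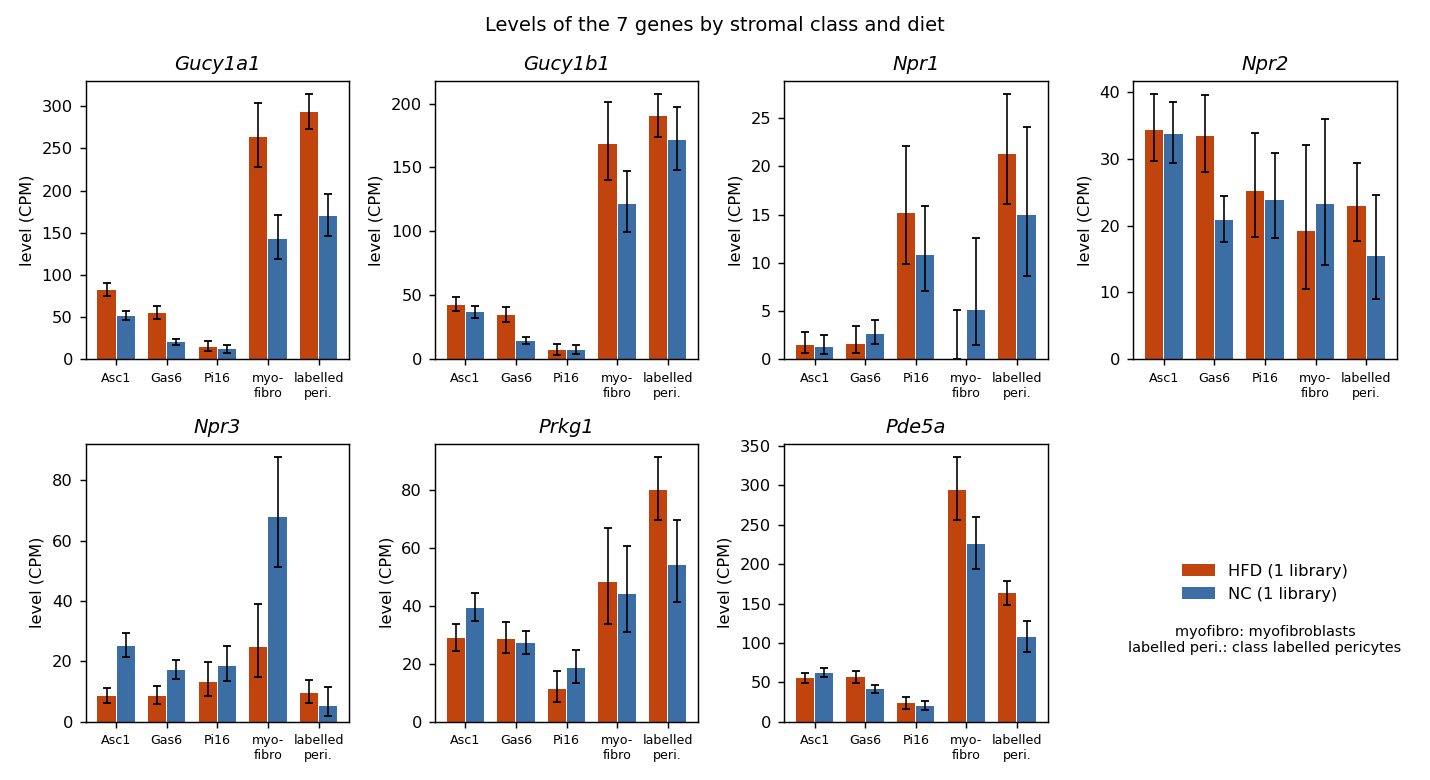
Level in CPM (y axis, from 0) of each of the 7 genes in the 5 classes (x axis) for the HFD and the NC library. Bars are levels of summed counts and whiskers 95% counting intervals; Gucy1a1, Gucy1b1, Pde5a and Prkg1 are high in the last 2 classes, Npr1 in Pi16 and the class labelled pericytes, and Npr3 in NC myofibroblasts (67.8 CPM).

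Within classes the diet difference of Gucy1a1 was widest in Gas6 fibroblasts. There it stood at 54.9 CPM in HFD (47.9 to 62.7) and 19.8 in NC (16.6 to 23.4), a ratio of 2.78 (2.23 to 3.47). The ratio was 1.598 (1.38 to 1.85) in Asc1 fibroblasts, 1.85 (1.47 to 2.34) in myofibroblasts, 1.73 (1.47 to 2.04) in the class labelled pericytes and 1.22 (0.680 to 2.18) in Pi16 fibroblasts. Gucy1b1 followed in Gas6 fibroblasts, at 34.2 CPM in HFD (28.7 to 40.5) and 14.1 in NC (11.5 to 17.2), a ratio of 2.42 (1.85 to 3.18). Elsewhere its ratio was nearer 1: 1.17 (0.970 to 1.41) in Asc1 fibroblasts, 1.39 (1.06 to 1.82) in myofibroblasts and 1.11 (0.939 to 1.32) in the class labelled pericytes. These last directions turned under other settings. The log2 ratio was -0.26 in myofibroblasts in cells of 1000 or more genes and 5% or less mitochondrial counts. In the class labelled pericytes it was -0.15 without the deepest 5% of each library, a cut over all classes together. In Pi16 fibroblasts, with 28.3 effective counts, it was 0.966 (0.417 to 2.17). Whether ratios differ between classes was not tested.

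Of the 6 cGMP genes measured in Gas6 fibroblasts, 3 were at least 1.5-fold higher in HFD (Gucy1a1, Gucy1b1 and Npr2), against 6.08% of 10550 genes, and 1 was at least 1.5-fold lower (Npr3), against 5.91%. In Asc1 fibroblasts 1 was higher (Gucy1a1, background 4.88%) and 1 lower (Npr3, 5.46%). In the class labelled pericytes 2 were higher (Gucy1a1 and Pde5a, background 11.4%) and 0 lower (6.77%). In myofibroblasts 1 was higher (Gucy1a1, 7.62%) and 1 lower (Npr3, 7.94%), and in Pi16 fibroblasts 0 were higher (5.7%) and 1 lower (Prkg1, 5.88%). Over all classes, 29 of 35 pairs of gene and class were measured, and 7 were past 1.5-fold upwards and 4 downwards. Beside the Gas6 result, the 8 alveolar fibroblast markers summed to 11209 CPM in HFD and 8051 in NC in that class, with none at 0, and the 8 adventitial ones to 1448 and 2282, with none at 0. Gas6 cells also differed in depth, with medians of 16128 and 12378.5 counts. Without the deepest 5% of each library, a cut over all classes together, the log2 ratio in Gas6 fibroblasts was 1.098 for Gucy1a1 and 0.82 for Gucy1b1. The part of the marker sums in the result was not tested.

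**Figure D2:**
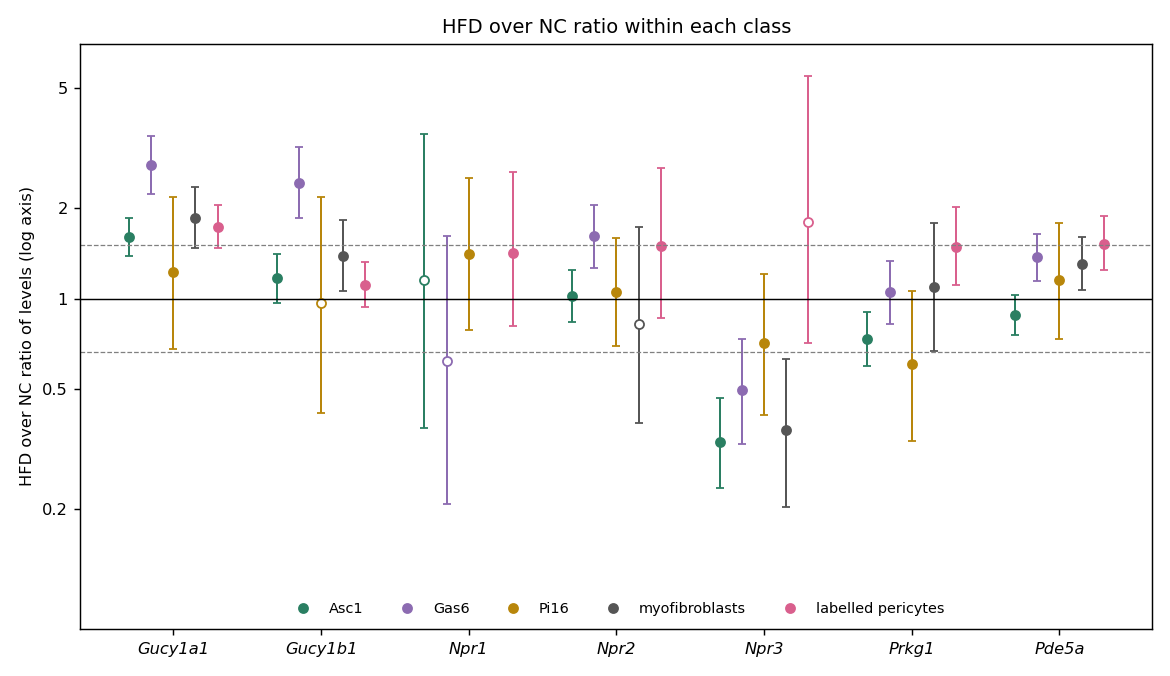
HFD over NC ratio of levels (y axis, log scale) for each gene (x axis) in the 5 classes, with 95% counting intervals. Filled points have at least 50 effective counts, open points fewer, dashed lines mark 1.5-fold, and Npr1 in myofibroblasts is not drawn because HFD had 0 counts; Gucy1a1 and Gucy1b1 in Gas6 fibroblasts lie highest (2.78 and 2.42) and Npr3 in Asc1 fibroblasts lowest (0.334).

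In the myofibroblast class a small set of cells held most of the Gucy1a1 counts. Each cell was scored by how many of the 12 pericyte markers had a count, none of them being one of the 7 genes. In the myofibroblast class, 28 of 510 HFD cells and 30 of 667 NC cells had 3 or more, and these held 75.3% and 73.1% of the class's Gucy1a1 counts. In pooled fibroblasts such cells held 25.05% and 21.4% of Gucy1a1 counts, and in Asc1 fibroblasts 2.07% and 7.59%. In the cells of the myofibroblast class with 3 or more, Gucy1a1 stood at 3301 CPM in HFD and 2386 in NC. Gucy1b1 stood there at 1936 and 1910, and Pde5a at 2988 and 1774. In pooled fibroblasts with 3 or more, Gucy1a1 was at 460 and 249 CPM. Myofibroblasts with 0 pericyte markers had 45.8 and 48.0 CPM of Gucy1a1, a ratio of 0.953 (0.465 to 1.93). Without the cells of 3 or more markers, the myofibroblast ratio was 1.73 (1.09 to 2.80) for Gucy1a1, 1.39 (0.848 to 2.30) for Gucy1b1 and 0.787 (0.589 to 1.05) for Pde5a. Pde5a thus changed sides there, from 1.31 (1.07 to 1.596) with all cells. Median depth of the myofibroblast-class cells with 3 or more markers was 7231.5 and 4497 counts, against 6286.5 and 4688 for those with 0.

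In Asc1 and Gas6 fibroblasts the diet difference of Gucy1a1 was present in cells with 0 pericyte markers. Asc1 cells with 0 markers (2730 HFD and 3456 NC cells) stood at 84.3 and 48.5 CPM, a ratio of 1.74 (1.48 to 2.04). Gas6 cells with 0 markers (710 and 1136 cells) stood at 52.7 and 19.6 CPM, a ratio of 2.69 (1.99 to 3.65), and at 26.9 and 13.2 CPM of Gucy1b1, a ratio of 2.04 (1.38 to 3.03). Over all fibroblasts with 0 markers, the Gucy1a1 ratio was 1.94 (1.70 to 2.22). Gas6 cells with 3 or more markers had more Gucy1a1 in both libraries, 256 CPM over 44 HFD cells and 56.1 over 67 NC cells, and held 27.04% and 12.1% of that class's counts. Without them the Gas6 ratio was 2.34 (1.84 to 2.99).

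A finer column of the NC table names 24 kept cells PDGFRb hi fibroblasts, of which 18 fall in the myofibroblast class and 6 in the Asc1 class, and all 24 had 3 or more pericyte markers. Their Gucy1a1 level was 4191 CPM (3394 to 5118), Gucy1b1 2929 (2270 to 3720), Pde5a 3170 (2483 to 3989) and Prkg1 362 (159 to 705). Pdgfrb stood at 1854 CPM, Cox4i2 at 2512 and Higd1b at 1097, while Acta2 was at 32.9 and the myofibroblast genes Hhip and Aspn had 0 counts. Npr1 and Npr2 had 0 counts in these cells, which allows up to 161 CPM by the interval. The HFD version of this column did not match its rows and was not used.

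**Figure D3:**
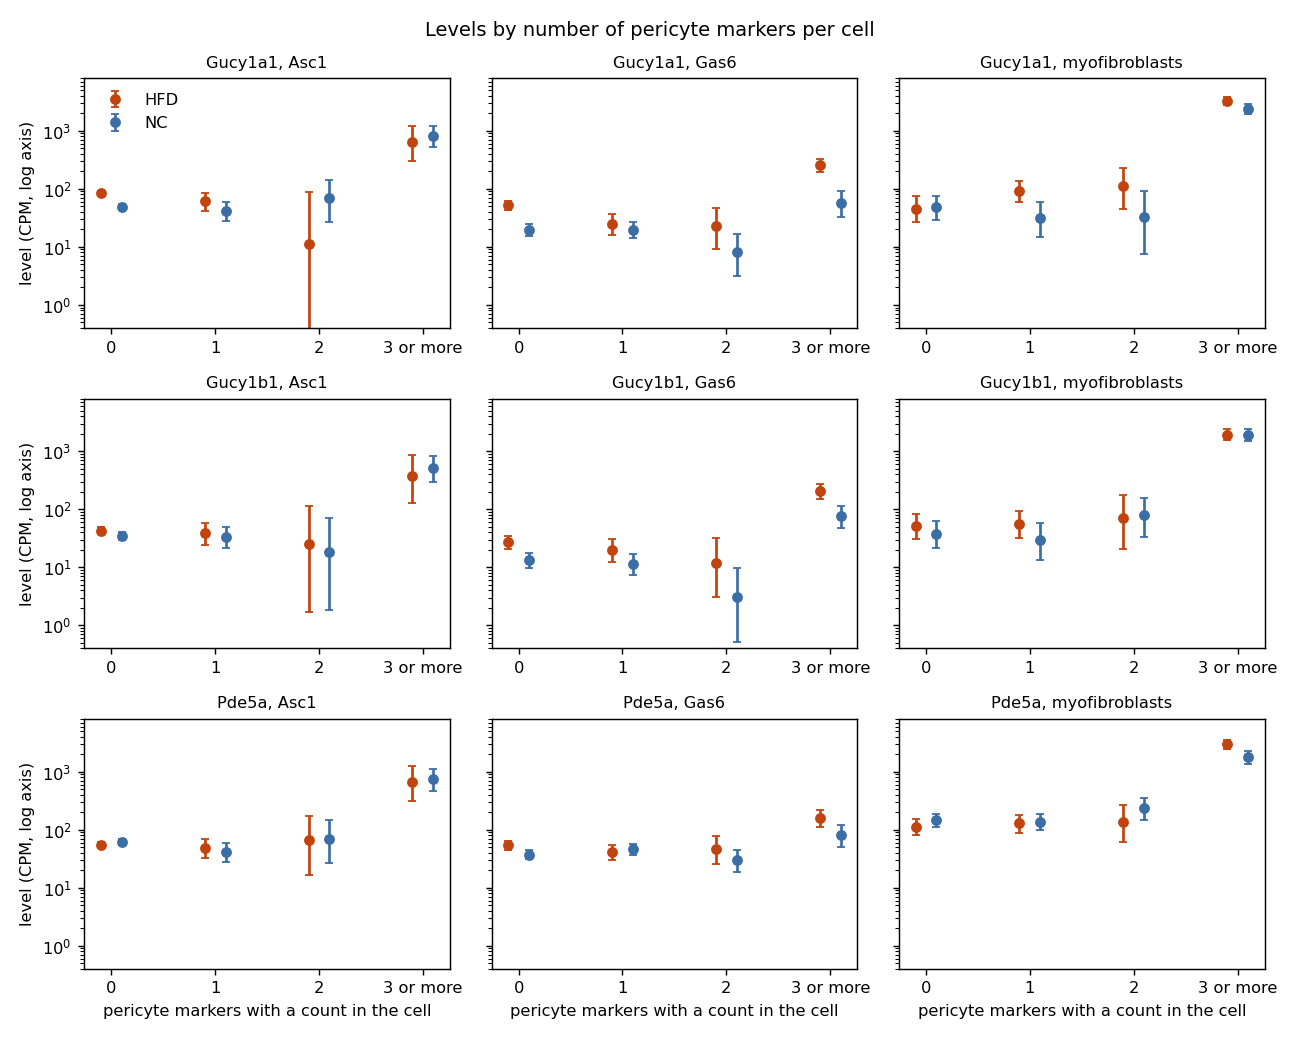
Level in CPM (y axis, log scale) of Gucy1a1, Gucy1b1 and Pde5a in cells with 0, 1, 2 or 3 or more of 12 pericyte markers (x axis), in Asc1, Gas6 and myofibroblast cells of the HFD and NC library, with 95% counting intervals. Levels stand apart at 3 or more markers, most in myofibroblasts (3301 CPM of Gucy1a1 in HFD and 2386 in NC), while HFD lies above NC at 0 markers for Gucy1a1 in Asc1 and Gas6 cells (84.3 and 48.5, 52.7 and 19.6 CPM).

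Since the enzyme needs both subunits, cells with counts of both genes were counted after thinning to 3000 counts. Among fibroblasts, 66 of 5407 in HFD (1.22%, interval 0.945 to 1.55%) and 57 of 7475 in NC (0.763%, interval 0.578 to 0.987%) had both. The product of the single shares was 0.450% and 0.222%. In the class labelled pericytes 94 of 595 in HFD (15.8%, interval 12.96 to 18.98%) and 21 of 247 in NC (8.50%, 5.34 to 12.7%) had both, with products of 13.0% and 7.69%. In myofibroblasts the shares were 4.61% and 2.83% with products of 1.23% and 0.613%, and in Asc1 fibroblasts 0.926% and 0.729% with products of 0.614% and 0.367%. Pi16 fibroblasts, the class lowest in both genes, had 2 of 789 and 1 of 1168 such cells. Without thinning, the fibroblast shares were 2.44% and 1.44%. In thinned Gas6 fibroblasts the shares were 1.19% and 0.599% with products of 0.312% and 0.108%. Thinned to 3000 counts, the intervals lay above the product in pooled, Asc1 and Gas6 fibroblasts and myofibroblasts of both libraries. They held it in the class labelled pericytes. This contrast depended on the setting. Unthinned, the interval of the class labelled pericytes lay above the product in HFD (38.1 to 46.2% against 36.1%) and narrowly in NC (27.02 to 39.0% against 27.0%). Under the stricter cell filter, HFD Asc1 fibroblasts held the product (0.768 to 1.81% against 0.895%). The part of cells with 3 or more pericyte markers was not tested.

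**Figure D4:**
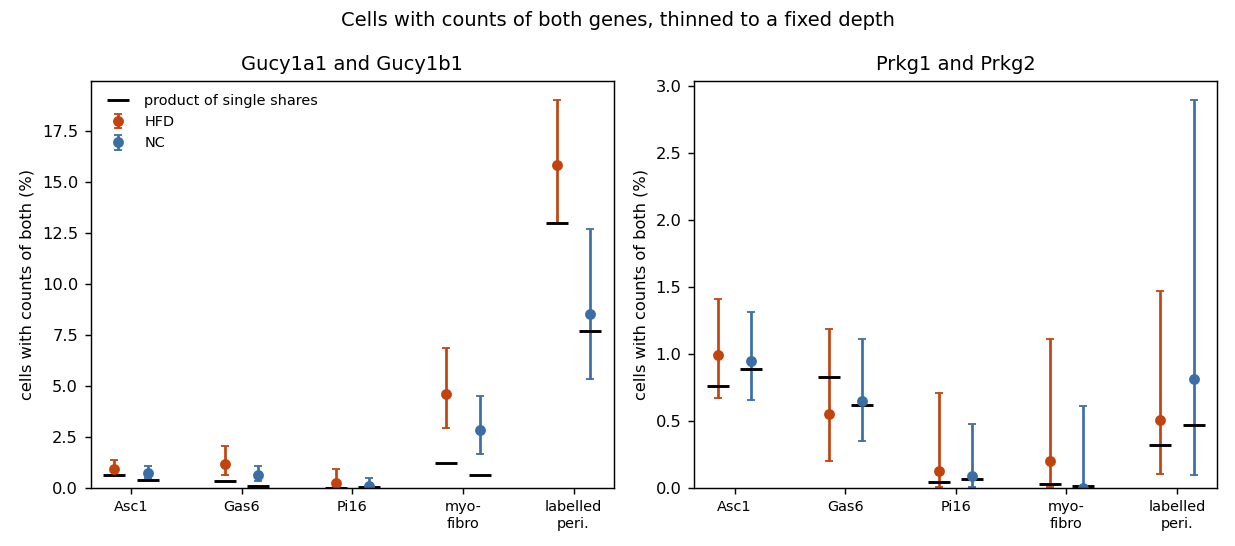
Share of cells with counts of both genes (y axis, percent), after thinning to 3000 counts, by class (x axis) for Gucy1a1 with Gucy1b1 and for Prkg1 with Prkg2; whiskers are exact 95% binomial intervals and black dashes the product of the single shares. The class labelled pericytes has the largest share for the cyclase subunits (15.8% in HFD, 8.50% in NC), and cells with both kinases make up at most 0.992% of a class.

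Of the receptors, Npr3, which binds natriuretic peptides and removes them without a cyclase domain, was lower in HFD fibroblasts. It stood at 10.2 CPM in HFD (8.44 to 12.2) and 23.1 in NC (20.9 to 25.6), a ratio of 0.440 (0.356 to 0.541). The ratio was 0.334 (0.235 to 0.466) in Asc1 fibroblasts at 8.41 and 25.2 CPM, 0.497 (0.330 to 0.733) in Gas6 fibroblasts at 8.56 and 17.2 CPM, and 0.366 (0.203 to 0.629) in myofibroblasts at 24.8 and 67.8 CPM. In Pi16 fibroblasts it was 0.712 (0.411 to 1.20). All 4 fibroblast classes were thus lower in HFD, though in Pi16 fibroblasts the interval held 1. In the class labelled pericytes, with 31.3 effective counts, levels were 9.38 and 5.22 CPM and the interval (0.713 to 5.48) held 1. Myofibroblasts had the highest Npr3 level in both libraries, clear of every other class in NC and overlapping Pi16 fibroblasts in HFD. After thinning, 1.81% of HFD (1.47 to 2.20%) and 3.87% of NC fibroblasts (3.44 to 4.33%) had an Npr3 count. In fibroblasts with 0 pericyte markers the ratio was 0.419 (0.319 to 0.545).

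Npr1, the receptor cyclase for the atrial and brain peptides, was scarce in fibroblasts, at 3.41 CPM in HFD (2.44 to 4.63) and 3.37 in NC (2.54 to 4.38), a ratio of 1.01 (0.657 to 1.54). It had a place of its own among the 7 genes. Its highest levels were in the class labelled pericytes, 21.3 and 14.97 CPM, and in Pi16 fibroblasts, 15.1 and 10.8 CPM, where the cyclase subunits were lowest. Asc1 fibroblasts had 1.44 and 1.254 CPM and Gas6 fibroblasts 1.599 and 2.58. HFD myofibroblasts had 0 counts in 510 cells, which allows a share of cells with a count of up to 0.588% (3 cells of 510; the exact interval ends at 0.721%), against 17 counts in 9 of 667 NC cells. The intervals of the class labelled pericytes and Pi16 fibroblasts overlapped in both libraries, as did those of Asc1 and Gas6. In NC, myofibroblasts (5.05 CPM, 1.45 to 12.6) also overlapped the class labelled pericytes, Pi16 and Gas6 fibroblasts.

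Npr2, the receptor cyclase for C-type peptide, was the most evenly spread of the 7 genes, with a highest class over lowest class ratio of 1.80 in HFD and 2.19 in NC. It stood at 31.8 CPM in HFD fibroblasts (28.7 to 35.2) and 26.4 in NC (23.99 to 29.02), a ratio of 1.20 (1.05 to 1.38). Only Gas6 fibroblasts, of the measured classes, were past 1.5-fold, at 33.4 and 20.8 CPM, a ratio of 1.61 (1.26 to 2.05), and 1.63 (1.18 to 2.27) in cells with 0 pericyte markers. Asc1 fibroblasts had 34.4 and 33.8 CPM, a ratio of 1.02 (0.833 to 1.24). Nppc, which encodes the C-type peptide, had 33.3 effective counts in fibroblasts, with 0 counts in HFD myofibroblasts and 11.9 CPM in NC ones.

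Prkg1, the cGMP-dependent kinase of smooth muscle, was highest in the class labelled pericytes, at 79.95 CPM in HFD (69.7 to 91.3) and 53.97 in NC (41.2 to 69.5), a ratio of 1.48 (1.11 to 2.01). In NC that interval overlapped the one of myofibroblasts (31.0 to 60.6). In Asc1 fibroblasts it was lower in HFD, at 28.9 and 39.3 CPM, a ratio of 0.734 (0.598 to 0.8999), and 0.679 (0.542 to 0.848) in cells with 0 pericyte markers. Pi16 fibroblasts had 11.2 and 18.5 CPM, with a ratio of 0.607 whose interval (0.337 to 1.06) held 1, and in cells with 0 pericyte markers the ratio turned to 1.07 (0.410 to 2.63). Gas6 fibroblasts (28.5 and 27.1 CPM) and myofibroblasts (48.1 and 43.99 CPM) had ratios of 1.05 and 1.09 with intervals that held 1. Over pooled fibroblasts the levels were 27.4 and 31.5 CPM, a ratio of 0.869 with an interval from 0.754 that reached 1. Prkg2, the other kinase of the family, had another distribution, at 113 and 98.4 CPM in Asc1, 75.3 and 67.4 in Gas6, 14.9 and 17.7 in the class labelled pericytes and 0.563 and 0.297 in myofibroblasts. Cells with counts of both kinases were near the product of the single shares, 0.992% against 0.757% in HFD and 0.945% against 0.889% in NC Asc1 fibroblasts.

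Pde5a, the phosphodiesterase that degrades cGMP and the target of sildenafil, was highest in myofibroblasts, at 294 CPM in HFD (256 to 336) and 225 in NC (194 to 259). The class labelled pericytes came next at 163 and 107 CPM, and Pi16 fibroblasts were lowest at 23.2 and 20.2 CPM. Without cells of 3 or more pericyte markers, myofibroblasts stood at 121 CPM in HFD and 154 in NC. That is under the class labelled pericytes in HFD and above it in NC. No intervals are given for these levels. In pooled fibroblasts Pde5a stood at 65.5 and 55.7 CPM, a ratio of 1.18 (1.07 to 1.29). Without cells of 3 or more pericyte markers the levels were 51.7 and 50.2 CPM, a ratio of 1.03 (0.923 to 1.15). The class ratios went both ways, 0.884 (0.759 to 1.03) in Asc1, 1.37 (1.15 to 1.64) in Gas6, 1.15 (0.736 to 1.78) in Pi16 fibroblasts and 1.52 (1.24 to 1.88) in the class labelled pericytes. In myofibroblasts the ratio was 1.31 (1.07 to 1.596), and 0.787 (0.589 to 1.05) without cells of 3 or more pericyte markers. Pde5a stood at 113 and 147 CPM in myofibroblasts with 0 pericyte markers, above the 54.01 and 61.5 CPM of Asc1 cells with 0 markers.

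Class shares added to the difference when all kept cells were summed. Of all kept cells, 9.79% in HFD and 3.07% in NC were in the class labelled pericytes, which held 47.4% and 23.4% of Gucy1a1 counts, and 50.7% and 29.7% of Gucy1b1 counts. Over all kept cells Gucy1a1 stood at 115 and 45.7 CPM, a ratio of 2.52. With the HFD class levels weighted by the NC shares of counts, the ratio was 1.85 for Gucy1a1, 1.37 for Gucy1b1, 1.18 for Pde5a, 1.11 for Npr1 and 0.927 for Prkg1, from 2.52, 1.92, 1.42, 1.64 and 1.13 unweighted. Npr3 was at 0.456 unweighted and 0.453 weighted, and Npr2 at 1.17 and 1.22.

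Another finer column, whose labels nest within the 5 classes in both tables, splits the Asc1 class into an SNAT2 subset of 245 HFD and 359 NC cells and the rest. The rest carried the Asc1 values, with ratios of 1.62 (1.396 to 1.88) for Gucy1a1, 0.333 (0.230 to 0.473) for Npr3 and 0.706 (0.569 to 0.872) for Prkg1. The SNAT2 subset had 93.9 CPM of Gucy1a1 in HFD (58.1 to 144) and 72.1 in NC (44.8 to 110), a ratio of 1.30 (0.679 to 2.499). Its levels of Pde5a, 109 and 146 CPM, lay above those of the rest, 52.9 and 58.3, and its intervals were wide in a subset of few cells. The unthinned share of its cells with a Pde5a count was 11.02% in HFD and 11.42% in NC, against 12.75% and 12.28%. SNAT2 cells held fewer counts per cell than the rest in both libraries. These shares therefore do not show whether Pde5a was found in more of them at equal depth. The subset also had more Pdgfrb, 89.3 and 129.7 CPM against 14.02 and 21.2, and more Hhip, 316 and 370 CPM against 35.9 and 47.01. Whether the same cells held these genes and Pde5a was not tested.

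A list of 64 gene names of the pathway and its cAMP counterpart, drawn up with earlier results known, put the 7 genes in context. Irag1 and Mrvi1 in it name the same gene. Of these, 46 were measured in fibroblasts, 4 were at least 1.5-fold higher in HFD, against 5.45% of all measured genes, and 2 lower, against 4.75%. The lower count is near that background. Gucy1a1 and Gucy1b1 of the higher genes and Npr3 of the lower are among the 7, chosen with earlier values known. Neither count therefore supports a claim about the list. The list median was a log2 ratio of -0.01, against 0.02 over all genes. The other 2 higher genes were Pde9a, a cGMP-specific phosphodiesterase, at 18.7 and 12.2 CPM with a ratio of 1.54 (1.27 to 1.87), and Hspb6, a small heat shock protein that protein kinase G phosphorylates, at 7.30 and 4.03 CPM with a ratio of 1.81 (1.30 to 2.53). Pde9a stood at 17.7 and 10.6 CPM in Asc1 fibroblasts and at 0.845 and 0.892 in myofibroblasts. Hspb6 was highest in the class labelled pericytes, at 142 and 131 CPM. The other lower gene was Atp2a2, the calcium pump of the endoplasmic reticulum, at 69.6 and 128 CPM with a ratio of 0.542 (0.4998 to 0.588).

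By role, none of the 3 measured genes around nitric oxide synthesis was past 1.5-fold, and Cav1, which holds nitric oxide synthase inactive in caveolae, was highest in the class labelled pericytes at 428 and 375 CPM. Nos3, the endothelial synthase, had 24.5 effective counts in fibroblasts. Of the peptide processing genes, Mme (neprilysin, which degrades natriuretic peptides) stood highest in Asc1 fibroblasts, 207 and 159 CPM, with a fibroblast ratio of 1.41 (1.32 to 1.51). The chaperone genes Hsp90aa1 and Hsp90ab1, whose products fold the soluble cyclase among many other proteins, were both at a ratio of 0.697, with 2055 CPM of Hsp90ab1 in NC cells of the class labelled pericytes. Among phosphodiesterases, Pde10a was highest in myofibroblasts, at 346 CPM in both libraries. Rgs2, a brake on G protein signalling that protein kinase G activates, was highest in myofibroblasts at 1157 and 1048 CPM. Abcc5, which exports cGMP, peaked at 42.5 CPM in NC Asc1 fibroblasts, and Pde4b, of the cAMP side, at 622 CPM in NC myofibroblasts. The plot of the list by role shows the 2 cyclase subunits and Hspb6 farthest to the right.

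**Figure D5:**
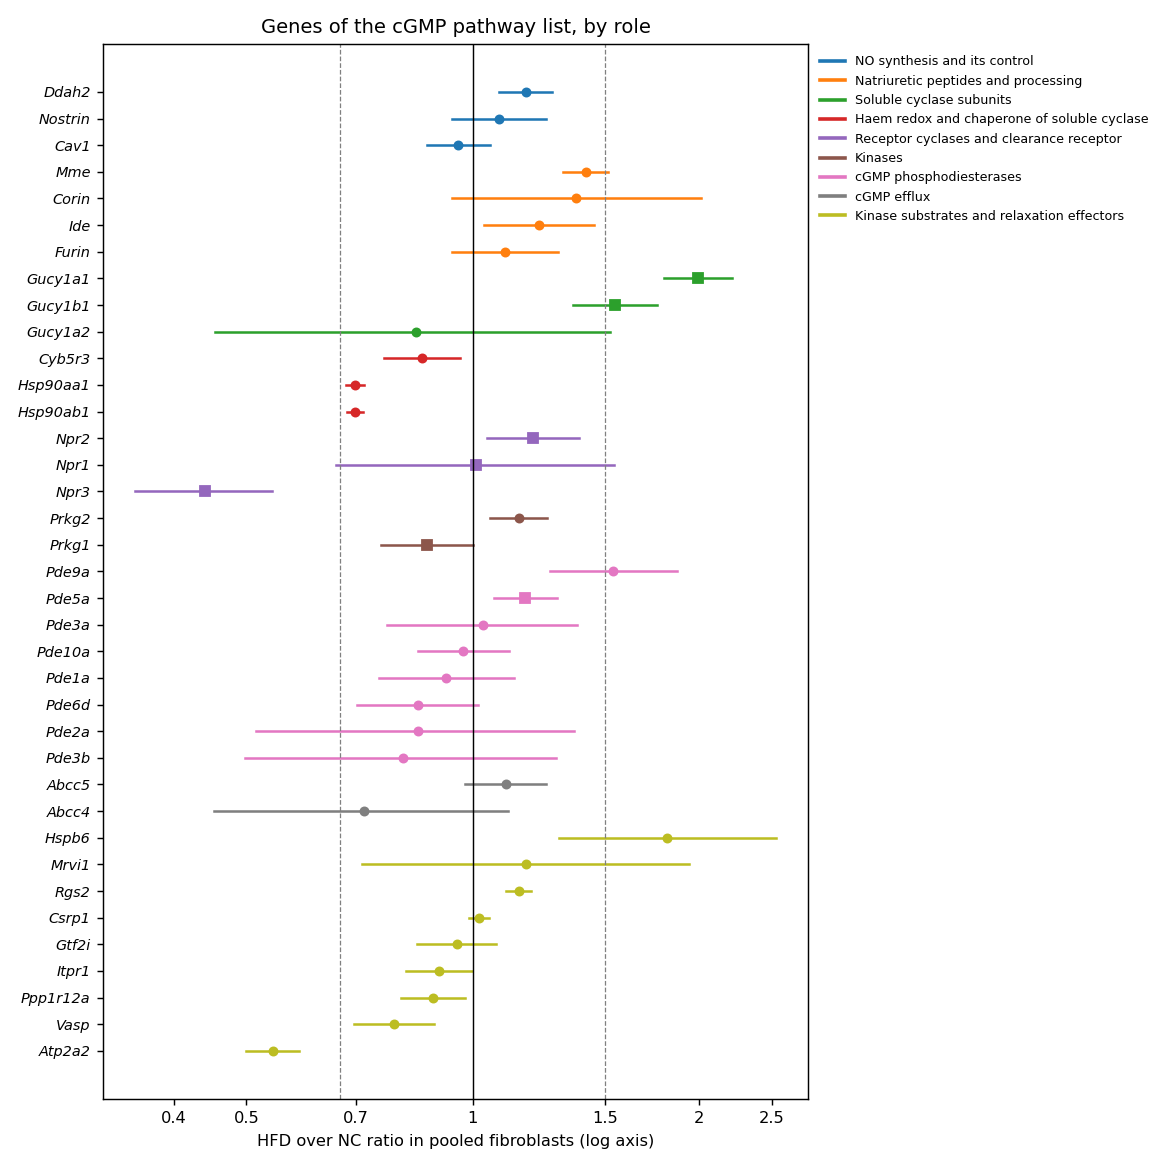
HFD over NC ratio in pooled fibroblasts (x axis, log scale) with 95% counting intervals for the pathway genes with at least 50 effective counts (y axis), coloured by role; squares are the 7 genes followed here, dashed lines mark 1.5-fold, and the cAMP genes are left out. Gucy1a1 (1.99), Hspb6 (1.81), Gucy1b1 (1.55) and Pde9a (1.54) lie beyond the upper line, Npr3 (0.440) and Atp2a2 (0.542) beyond the lower.

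Genes of like pattern were sought by Pearson correlation of log2(CPM + 10) over the 10 sums of class and library, among 11571 genes. The 10 points share 2 libraries, and the values are given as a description. Gucy1a1 came closest to Atp5c1 (r = 0.987), its partner Gucy1b1 (0.986), Mtss1l (0.986) and Crim1 (0.952). Gucy1b1 came closest to Gucy1a1 (0.986) and Atp5c1 (0.971). Mtss1l, like the subunits, was higher in HFD in Asc1 (20.3 and 8.74 CPM) and Gas6 fibroblasts (12.02 and 4.05 CPM), while Atp5c1 moved only between 107 and 157 CPM over all 10 sums. Npr1 was nearest to Coq9 (0.975) and Rbpj (0.965), Npr2 to Crcp (0.966) and Zbtb7a (0.955), Npr3 to Anapc16 (0.967) and Hmgxb3 (0.962), Prkg1 to Camk2d (0.969) and Pgrmc1 (0.963), and Pde5a to Cbx1 (0.964) and Arhgef12 (0.964). By rank correlation, 2 of these 16 names came up again.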

How the data were processed

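The 2 deposited tables, 1 per library of lung stromal cells, hold log2 values per cell and gene, found from the values to be log2(CPM + 1), and, per the file headers, mitochondrial shares in percent, a count of detected genes and, for each cell, its total as an estimated count, not always whole. Per the labels' protocols a 10x 3′ kit was used, and per the submitters' processing notes STAR and mm39. Versions, and whether molecules or reads were counted, are not stated in the labels. Counts were recovered as the undone log2 value times the cell's total, 98.8% (HFD) and 98.96% (NC) of nonzero values being whole within 0.01, and rounded. Columns that repeat a name were taken in their later copy, which matches the rows. A gene table of an older build gave symbols for 20180 of 21014 identifiers, and coordinates are printed only for the promoter table's own build.

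Counts were summed per class and library (Python 3.11.15, numpy 2.4.6, pandas 2.3.3), with exact conditional Poisson intervals of ratios and exact Clopper-Pearson intervals of shares (scipy 1.17.1), both for counting error only. The variance factors are medians over 6024 HFD and 6340 NC genes seen in 0.1 to 1% of cells. Kept cells held 71014948 and 69940474 counts. A ratio of at least 1.5 either way, at 50 or more effective counts, was called by size, with no test. The calculation was checked on simulated data drawn with the same variance factors, so the check does not cover genes that are more clumped. No doublet caller was run. In 1 setting the deepest 5% of the kept cells of each library were left out, which is no test for doublets. That cut was taken over all classes together and falls unevenly on them. Median depth was 6617 and 4816 counts in myofibroblasts and 19714.5 and 15459.5 in the class labelled pericytes. Alternatives covered cell filters, scaling (TMM in edgeR 4.0.16, median of ratios, other totals), means per cell, cells left out, thinning and pattern measures.

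The 7 genes, the pathway and marker lists and the rule for named genes (list genes past 1.5-fold, the highest gene of each role, the nearest patterns) were chosen with earlier results of these data known. Gucy1a2, Nppc, Nos3, Prkg2, Mme and the Hsp90 genes were named outside that rule or for a result that turns on them, after their values were seen. The list genes Nos1, Nos2, Nppa, Nppb, Ostn, Gucy2c and Pde11a were not analysed here. The gene of the list name Irag1 was analysed under its other name, Mrvi1.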

Additional observations from a re-analysis of the deposited data

Results flagged for a closer look

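Prkg1 went opposite ways in 2 classes. The HFD over NC ratio was 1.48 in the class labelled pericytes (79.95 and 53.97 CPM) and 0.734 in Asc1 fibroblasts (28.9 and 39.3 CPM), and neither counting interval held 1. The difference between the classes was not tested, as each diet has 1 library.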

How the results depend on the processing

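No paired analysis was possible because each diet has 1 library. Log2 ratios of HFD over NC in pooled fibroblasts stayed within their counting intervals, except the following, whose cause was not tested. Without the Asc1 class they were 1.26 for Gucy1a1 (0.996 as reported), 0.97 for Gucy1b1 (0.63) and 0.53 for Pde5a (0.23). As shares of thinned cells they were 0.71 for Gucy1a1, 0.31 for Gucy1b1 and -0.028 for Pde5a. The mean of per-cell CPM gave 0.44 for Gucy1b1. Pde5a was at 0.089 without its 10 cells of most counts, and at 0.051, 0.041 and 0.039 without cells of 2 or more, of 3 or more, or of any pericyte marker. The last 2 of these settings, and leaving out shared barcodes, were added after seeing the data. Pairs of gene and class past 1.5-fold upwards numbered 11 in cells of 1000 or more genes and 5% or less mitochondrial counts, against 7. Pathway genes past the fold numbered 2 higher by mean of per-cell CPM, against 4, and 7 lower at a smaller fold minimum, against 2. The shares of all genes past the fold under these settings are not given here, so whether the counts exceed them cannot be read. Shares of cells with both subunits were 2.44% (HFD) and 1.44% (NC) unthinned and 1.69% in HFD thinned to 5000. By Spearman correlation 2 of 16 like genes were named again. Of 319 alternatives for single classes, 302 stayed within their interval, 15 moved past it and 2 past 1.5-fold turned, both in cells with 0 pericyte markers: Gucy1a1 in myofibroblasts, log2 -0.070, and Prkg1 in Pi16 fibroblasts, log2 0.10. Among those that moved, Gucy1b1 turned in myofibroblasts under the stricter cell filter (log2 -0.26). It also turned in the class labelled pericytes without the deepest cells of each library (-0.15). In that class, Npr1 and Npr2 stood at 1.78 and 1.53 without the 10 cells of most counts. Scaling moved the median of all genes by under 0.1. Depth limits Npr1 most, with 96.1 effective counts in fibroblasts. With 1 library per diet, no spread between animals is known.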
